A study of Mus musculus with 18 samples.

Results

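Dlk1, Meg3, Rian and Mirg are RNAs of 1 imprinted domain, and all 4 were higher on average in mouse lung tumours than in control lung, by amounts that differed widely from tumour to tumour. The domain was taken as 6 genes by name, Dlk1, Meg3, Rtl1, Rian, Mirg and Dio3. Of these, 4 had at least 1 probe set whose platform annotation gives a single symbol, among 18193 such genes in all, and they had 19 probe sets between them. Rtl1 and Dio3 were not analysed here. Each gene is given by the brightest of its probe sets, by the mean of all 18 arrays, so the probe sets were selected on the measured levels.

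RNA of 18 samples from B6C3F1/N mice was measured on an Affymetrix 3′ expression array, 1 array per sample, in 3 groups of 6. The cobalt tumours came from lungs of mice that inhaled cobalt metal particulate aerosol, the spontaneous tumours arose in the lung without a stated exposure, and the control samples were lung of the vehicle group. The study used both sexes, 5 to 6 weeks old at the start. It ran for at most 105 weeks, with exposure for 6 hours on each of 5 days a week at 1.25, 2.5 and 5 mg/m3, beside a group at 0 mg/m3. The labels do not tie a dose, a sex or an age at sampling to any array. They also do not state that each array is a different animal, so the p-values speak only of the spread among the arrays. Tumours were dissected out of the surrounding lung, while the labels call the control samples lung without naming a dissection. All levels below are log2 values as deposited.

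An imprinted gene is transcribed from 1 parental copy only. In this domain of mouse chromosome 12 the paternal copy gives the protein-coding RNAs Dlk1, Rtl1 and Dio3, and the maternal copy gives the noncoding RNAs Meg3, also called Gtl2, Rian and Mirg, which are thought to be made largely as 1 long unit that starts at the Meg3 promoter. Dlk1 encodes a membrane protein related to the Notch ligands that is abundant in many fetal tissues and marks preadipocytes. Meg3 is a long noncoding RNA, Rian carries small nucleolar RNAs, and Mirg carries microRNAs. The domain is strongly transcribed in the embryo and placenta and, in adults, in brain and some endocrine organs, while most other adult tissues hold little of it.

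The windows at the annotated starts of the 4 measured genes are shown because the RNAs belong to 1 domain and were all higher in the tumour groups on average. Each runs from 250 bases before to 50 after the annotated start, from RefSeq on GRCm38.p6, all on the plus strand, at chr12:109452573-109452872 for Dlk1, chr12:109540746-109541045 for Meg3, chr12:109603695-109603994 for Rian and chr12:109734731-109735030 for Mirg. The 3 motifs were searched on both strands and stand in capitals where found. The first was TGACGTCA, a cyclic AMP response element. The next was TGCCGC, which ZFP57, a factor that maintains imprints, binds when its cytosine is methylated in both strands. The last was the TATA box, searched for as the letters TATAAA.
Meg3: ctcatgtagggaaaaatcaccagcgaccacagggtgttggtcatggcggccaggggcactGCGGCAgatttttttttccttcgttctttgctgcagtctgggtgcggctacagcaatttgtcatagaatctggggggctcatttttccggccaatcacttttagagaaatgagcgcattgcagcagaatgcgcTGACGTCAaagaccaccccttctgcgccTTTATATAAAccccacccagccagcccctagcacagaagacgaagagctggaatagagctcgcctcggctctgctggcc
Dlk1: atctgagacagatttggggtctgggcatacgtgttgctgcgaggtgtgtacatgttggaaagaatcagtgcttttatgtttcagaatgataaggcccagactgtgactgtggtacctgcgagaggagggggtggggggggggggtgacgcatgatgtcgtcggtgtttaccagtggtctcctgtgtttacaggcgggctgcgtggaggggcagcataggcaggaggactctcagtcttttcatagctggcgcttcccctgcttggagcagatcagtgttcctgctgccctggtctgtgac
Rian: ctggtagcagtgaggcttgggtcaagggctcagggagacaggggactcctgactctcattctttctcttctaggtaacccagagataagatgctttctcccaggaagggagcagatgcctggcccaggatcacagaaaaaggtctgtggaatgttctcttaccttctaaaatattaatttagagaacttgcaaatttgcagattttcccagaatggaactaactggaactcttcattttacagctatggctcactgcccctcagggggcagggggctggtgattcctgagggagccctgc
Mirg: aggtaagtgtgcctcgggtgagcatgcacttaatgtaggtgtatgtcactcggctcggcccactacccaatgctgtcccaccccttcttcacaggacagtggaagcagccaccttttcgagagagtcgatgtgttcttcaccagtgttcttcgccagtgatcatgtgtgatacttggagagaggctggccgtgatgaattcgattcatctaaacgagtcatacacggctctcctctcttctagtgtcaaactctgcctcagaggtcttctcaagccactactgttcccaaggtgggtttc
The Meg3 window alone among the 4 held any of these letters. If Rian and Mirg are made as part of the long unit, their windows lie inside a transcript and need not be promoters. TGACGTCA begins 57 bases before the start, on the plus strand. The ZFP57 motif lies 190 bases before it on the minus strand, so its complement is printed, and the TATA box has 2 overlapping matches, 29 bases before the start on the minus strand and 25 bases before it on the plus strand. Of 32851 windows of the same length, 1.79% held the cyclic AMP response element, 11.61% the ZFP57 motif and 13.62% the TATA box. The Meg3 window had 13 CpG pairs, Mirg 10, Dlk1 9 and Rian 0, beside a median of 7 over all windows. RefSeq gives Meg3 another start, not shown, whose window held none of the 3 motifs. A match is a run of letters and not a bound site.

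Between Dlk1 and Dio3 the table of microRNAs lists 58 hairpins with 114 mature microRNAs, of which 10 hairpins lie within Mirg and 3 within Rian. The array did not measure mature microRNAs. A few that share a seed are printed below, with the seed, bases 2 to 8, in capitals. The first pair lies within Mirg, as does miR-410, while miR-494 lies outside Meg3, Rian and Mirg as annotated.
mmu-miR-453: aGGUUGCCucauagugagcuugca
mmu-miR-496a-5p: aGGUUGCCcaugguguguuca
mmu-miR-410-5p: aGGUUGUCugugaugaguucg
mmu-miR-494-5p: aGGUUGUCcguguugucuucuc
The seeds of the first and second pair differ from each other, and nothing is known from these arrays of the level of any of the 4.

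Some facts of the arrays bear on all results. The labelled tissue was borne out by Sftpc, the surfactant protein C gene of alveolar type 2 cells, at 14.99 to 15.21 in cobalt tumours, 14.27 to 15.26 in spontaneous tumours and 14.83 to 14.95 in control lungs. Xist was above 10 on 4 of 6 cobalt tumours (2, 3, 5 and 6), 2 of 6 spontaneous tumours (4 and 6) and all 6 control lungs, and 3 Y-linked genes were high on the other arrays, so sex by these genes is not balanced between tumours and controls. A free-text label of control lung 6 names a spontaneous tumour, against its title, source and group. Its levels of Dlk1, Meg3 and Mirg lay among those of the other control lungs, and its Rian level of 5.25 was the lowest of the 6. These levels alone cannot tell lung from tumour, because spontaneous tumour 2 also lay in the control range for Dlk1, Rian and Mirg. At -67.7 on the first principal component, control lung 6 lay with the other control lungs, where the lowest spontaneous tumour was at 17. On the first principal component cobalt tumour 6 lay at -24.5, between the other tumours (17 to 60.6) and the control lungs (-67.7 to -63.7), and on the second, spontaneous tumours 2 and 6 lay apart from the others at 62.1 and 53.5. In bulk tissue, fewer cells of a type and less RNA per cell cannot be told apart.

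Meg3 was high in most tumours and near its control level in a few. Its level in cobalt tumours 1 to 6 was 13.51, 8.61, 13.58, 9.35, 13.46 and 12.78. In spontaneous tumours 1 to 6 it was 14.00, 7.67, 13.46, 13.25, 12.47 and 10.65. In control lungs 1 to 6 it was 8.29, 8.36, 8.19, 8.0, 8.46 and 8.45. On the brightest probe set all 6 cobalt tumours stood above the highest control lung, 1 of them by only 0.15. Of the spontaneous tumours 5 of 6 did, and spontaneous tumour 2 stood below the lowest control lung. The means were 11.88 ± 2.28 in cobalt tumours, 11.92 ± 2.39 in spontaneous tumours and 8.29 ± 0.18 in control lungs (SD, n = 6 each), which is 3.59 higher in cobalt tumours (12.1-fold) and 3.62 higher in spontaneous tumours (12.3-fold) than in control lungs, and 0.03 lower in cobalt than in spontaneous tumours. Meg3 was known to differ when the domain was chosen, so these differences are descriptions and carry no test.

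The 11 Meg3 probe sets all had higher means in the tumour groups, with different sizes. The cobalt tumours were higher than control lungs by 0.66 to 3.97 and the spontaneous tumours by 1.33 to 4.39 in the mean, on 11 of 11 probe sets in each. Spontaneous tumour 2 exceeded all control lungs on 0 of the 11, cobalt tumour 2 on 7, spontaneous tumour 6 on 9, and cobalt tumours 4 and 6 on 10. The other 7 tumours exceeded them on all 11. On some of the Meg3 probe sets cobalt tumour 2 lay below every control lung. It stood at 6.48, 5.13 and 6.06 there, where the lowest control lungs were at 6.82, 5.64 and 6.29. The probe set with the highest mean has the suffix _x_at, which its maker gives to sets with probes that may also bind other transcripts, and the differences were not confined to it.

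**Figure D1:**
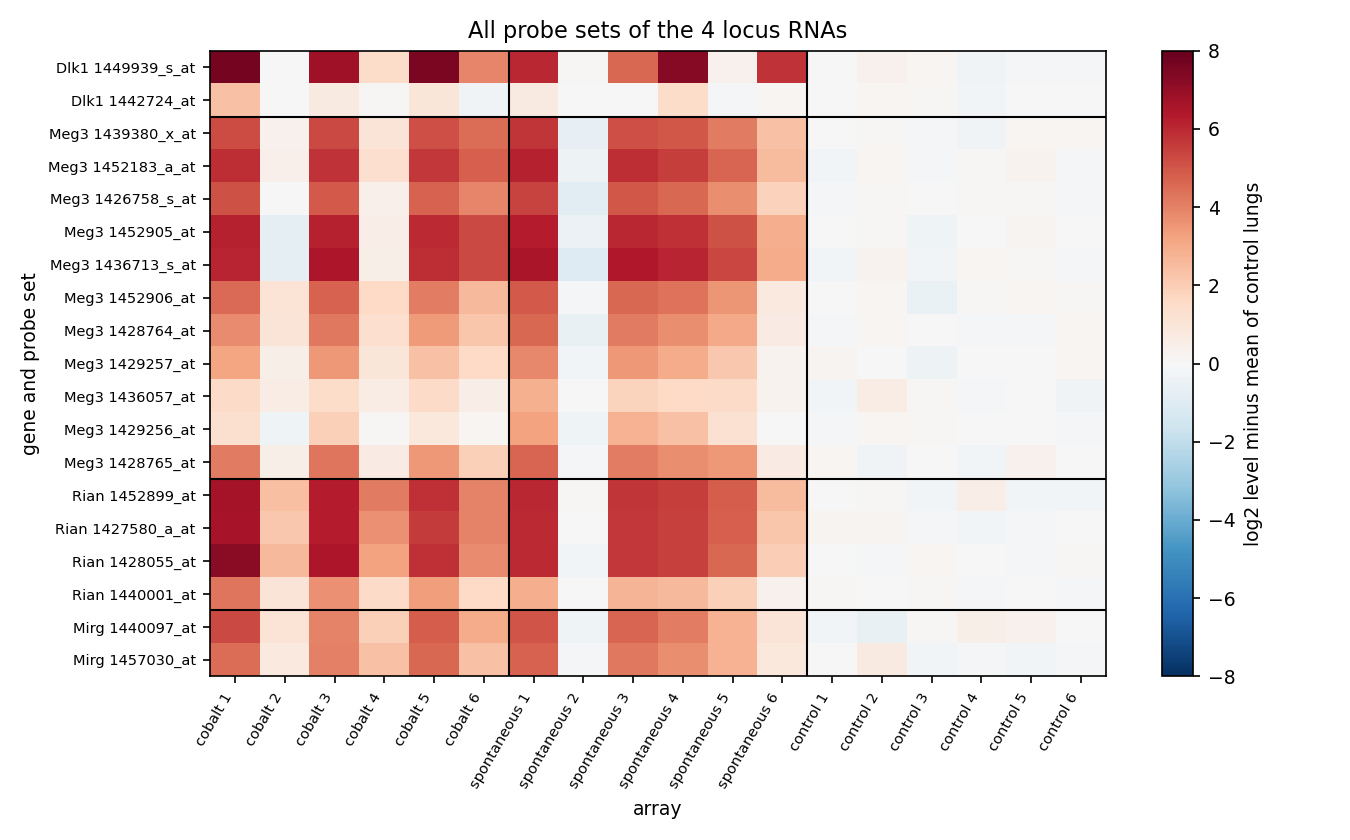
Each row is 1 of the 19 probe sets of Dlk1, Meg3, Rian and Mirg and each column 1 array, with cobalt tumours on the left, spontaneous tumours in the middle and control lungs on the right. The colour is the log2 level minus the mean of the 6 control lungs, red where higher, and spontaneous tumour 2 is pale or faint blue on every row.

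Rian was also near its control level in spontaneous tumour 2. Cobalt tumours 1 to 6 had levels of 12.12, 7.87, 11.73, 9.64, 11.33 and 9.46. Spontaneous tumours 1 to 6 had 11.49, 5.54, 11.21, 11.00, 10.34 and 8.0. Control lungs 1 to 6 had 5.45, 5.58, 5.28, 6.02, 5.28 and 5.25. The lowest cobalt tumour stood 1.85 above the highest control lung, so these groups did not overlap, and spontaneous tumour 2 alone among the spontaneous tumours fell within the control range. Rian averaged 10.36 ± 1.64 in cobalt tumours, 9.60 ± 2.36 in spontaneous tumours and 5.48 ± 0.30 in control lungs (SD, n = 6 each). Rian and Meg3 differed in their order of cobalt tumours: above the control mean, cobalt tumour 4 stood 4.16 for Rian and 1.05 for Meg3, and cobalt tumour 6 stood 3.98 for Rian and 4.49 for Meg3. Rian rose in cobalt tumours by 4.88 ± 0.90 (SE; 29.5-fold; limma, adjusted p = 0.000394) and in spontaneous tumours by 4.12 ± 0.90 (SE; 17.4-fold; limma, adjusted p = 0.00164). All 4 Rian probe sets were higher in the mean, by 2.57 to 4.88 in cobalt tumours and 1.75 to 4.12 in spontaneous tumours.

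Mirg lies farthest from the Meg3 start of the 3 noncoding RNAs. Its level in cobalt tumours 1 to 6 was 11.02, 6.87, 9.71, 7.68, 10.62 and 8.76. The spontaneous tumours 1 to 6 had 10.78, 5.44, 10.44, 9.88, 8.52 and 6.82. The control lungs 1 to 6 had 5.55, 5.15, 5.84, 6.22, 6.10 and 5.72. Every cobalt tumour again exceeded every control lung, the lowest by 0.65, and spontaneous tumour 2 was again the only tumour inside the control range. The mean was 9.11 ± 1.64 in cobalt tumours, 8.65 ± 2.14 in spontaneous tumours and 5.76 ± 0.39 in control lungs (SD, n = 6 each). Mirg rose by 3.34 ± 0.85 in cobalt tumours (SE; 10.2-fold; limma, adjusted p = 0.00499) and by 2.88 ± 0.85 in spontaneous tumours (SE; 7.39-fold; limma, adjusted p = 0.0133). The second call was lost with Y-linked RNA as a covariate (2.57, adjusted p = 0.0834) and on the arrays with high Xist alone (2.59, adjusted p = 0.0522, 2 spontaneous tumours against 6 control lungs). Its other probe set differed by 3.08 in cobalt tumours and 2.70 in spontaneous tumours.

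By the brightest probe set of each gene, Dlk1, from the paternal copy, spread more than any of the noncoding RNAs. In cobalt tumours 1 to 6 its level was 13.85, 6.15, 12.97, 7.62, 13.72 and 10.06. In spontaneous tumours 1 to 6 it was 12.21, 6.27, 10.80, 13.43, 6.50 and 11.93. In control lungs 1 to 6 it was 6.15, 6.54, 6.31, 5.90, 6.07 and 6.09. It exceeded all control lungs in 5 of 6 cobalt tumours and in 4 of 6 spontaneous tumours, and cobalt tumour 2 and spontaneous tumours 2 and 5 lay within the control range. It averaged 10.73 ± 3.31 in cobalt tumours, 10.19 ± 3.07 in spontaneous tumours and 6.17 ± 0.22 in control lungs (SD, n = 6 each).

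Dlk1 rose in cobalt tumours by 4.55 ± 1.40 (SE; 23.5-fold; limma, adjusted p = 0.0174), with overlapping groups. It rose in spontaneous tumours by 4.02 ± 1.40 (SE; 16.2-fold; limma, adjusted p = 0.0339). The call in spontaneous tumours was fragile: it was lost without any 1 of the 6 control lungs or of spontaneous tumours 1, 3, 4 and 6 (differences of 3.37 to 4.09 in those 10 fits, adjusted p 0.0512 to 0.0822). It was also lost with the mean of both Dlk1 probe sets (2.19, adjusted p = 0.0525) and without control lung 6 and cobalt tumour 6 together (4.0, adjusted p = 0.0599). The dimmer Dlk1 probe set ran from 5.34 to 7.98 in cobalt tumours, 5.47 to 7.12 in spontaneous tumours and 5.38 to 5.80 in control lungs, and its group means differed by 0.63 and 0.36. On it only cobalt tumours 1, 3 and 5 and spontaneous tumours 1 and 4 exceeded all control lungs. Cobalt tumour 4 and spontaneous tumours 3 and 6 lay within the control range there, and cobalt tumour 6 lay below it.

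**Figure D2:**
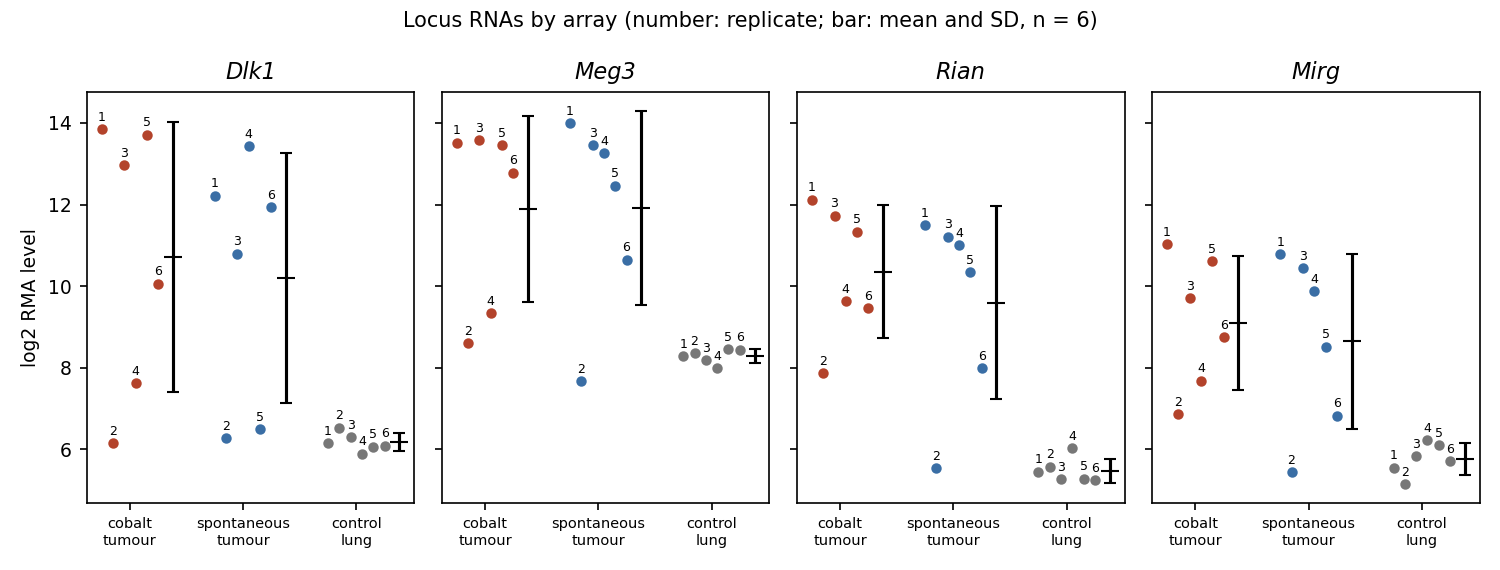
Log2 RMA level of Dlk1, Meg3, Rian and Mirg on each of 18 arrays, with cobalt tumours left, spontaneous tumours in the middle and control lungs right. Numbers are replicates, and the black bars are means with SD (n = 6); the 6 control lungs sit close together while the tumours of both groups spread over several log2 units.

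Set against the whole array, all 3 tested members were called higher in cobalt tumours, where 14.7% of 18193 genes were, and all 3 in spontaneous tumours, where 16.4% were. Rian and Mirg in cobalt tumours had no overlap with control lungs, which held for 8.1% of genes in that direction. In spontaneous tumours Dlk1, Rian and Mirg all overlapped with control lungs, where 9.21% of genes lay wholly above them. The 2 comparisons share the control lungs. The domain was chosen with Meg3 known to differ. Over the tumours, with group means subtracted, Mirg and Rian followed Meg3 closely (r = 0.94 and 0.93). Dlk1 followed it less closely (r = 0.78). These r take in wide gaps among the tumours of a group, given below, and are descriptions. The calls of the 3 members are therefore not separate from that choice. The shares of all genes are given beside them as a description and not as a test. Over all genes the median difference was -0.03 in cobalt and -0.03 in spontaneous tumours.

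Between the tumour groups the members did not pass the test, and the intervals are wide. In cobalt minus spontaneous tumours, Dlk1 differed by 0.54 (95% interval -2.42 to 3.49; limma, adjusted p = 0.924). Rian differed by 0.76 (-1.13 to 2.65; limma, adjusted p = 0.804) and Mirg by 0.46 (-1.32 to 2.24; limma, adjusted p = 0.885). Of the 3, 0 were called, where 0.044% of genes were called higher in cobalt tumours and 0.0385% lower. A difference of several fold in either direction lies inside these intervals.

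The members were also among the genes that varied most between tumours of 1 group. Ranked by SD among 18193 genes, Dlk1 was 1st in cobalt tumours and 7th in spontaneous tumours. Meg3 ranked 23 and 49, Rian 110 and 56, and Mirg 109 and 73 in the same order of groups. These ranks depend on the probe set. The dimmer Dlk1 set had SDs of 0.96 and 0.63. Among the dimmer Meg3 sets the SDs ran from 0.50 to 3.17 in cobalt tumours and from 1.06 to 2.97 in spontaneous tumours. In control lungs the SDs were 0.22 for Dlk1, 0.18 for Meg3, 0.30 for Rian and 0.39 for Mirg, beside medians over all genes of 0.221 in cobalt tumours, 0.22 in spontaneous tumours and 0.159 in control lungs.

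The noncoding RNAs had the same order of tumours within the spontaneous group. Over the 6 spontaneous tumours Meg3 and Rian had Pearson r = 0.996 and Spearman rho = 1, Meg3 and Mirg r = 0.968, and Rian and Mirg r = 0.972, with exact permutation p of 0.0014 for each r and 0.0028 for each rho, the smallest that 6 tumours allow. After leaving out spontaneous tumours 2 and 6, the farthest from the median, r was 0.993, 0.977 and 0.996 for these pairs. Over the 6 cobalt tumours Rian and Mirg had r = 0.935 (exact permutation p = 0.0111) and rho = 0.886 (exact permutation p = 0.0333), with r = 0.817 without cobalt tumours 1 and 2. In all there were 12 pairs, of which 6 were tested, two-sided, and Benjamini-Hochberg adjustment counted the other 6 as p of 1. The adjusted exact permutation p was 0.0042 for each r and 0.0083 for each rho in spontaneous tumours. For Rian and Mirg in cobalt tumours it was 0.025 for r and 0.0667 for rho, so the rank correlation did not pass.

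Dlk1 was set against Rian and Mirg in cobalt tumours. There it had r = 0.948 with Rian (exact permutation p = 0.0125) and r = 0.985 with Mirg (exact permutation p = 0.0014), and r = 0.880 and 0.982 on leaving out the 2 farthest tumours. The adjusted exact permutation p was 0.025 for r and 0.0667 for rho with Rian, and 0.0042 for r and 0.0083 for rho with Mirg. For the other 6 pairs, those with Meg3 in cobalt tumours or Dlk1 in spontaneous tumours, no r within the group is given. There a single gap took 69% and 60% of the range. By a limit of 50%, chosen after the values were seen, the tumours fell into separate clusters. The r given for the 12 tumours together, with group means subtracted, still hold these clusters and are descriptions. The 6 pairs without an r within the group include the tumours in which Meg3 and Rian, or Dlk1 and the noncoding RNAs, differ in order. The 6 values of r within a group therefore do not speak for the locus as a whole. From highest to lowest, the spontaneous tumours ran 4, 1, 6, 3, 5 and 2 for Dlk1. For Meg3, Rian and Mirg they ran 1, 3, 4, 5, 6 and 2. Tumours 5 and 6 are given as examples of the differing order. Spontaneous tumour 5 had Dlk1 at 6.50, inside the control range, with Meg3 at 12.47 and Rian at 10.34, both well above it. Spontaneous tumour 6 had Dlk1 at 11.93, far above the control range, with Meg3 at 10.65, Rian at 8.0 and Mirg at 6.82. These 3 stood 2.19, 1.97 and 0.60 above the highest control lung, and were each the second lowest of the spontaneous tumours. On the dimmer Dlk1 probe set spontaneous tumour 6 was at 5.78, inside the control range of 5.38 to 5.80. Whether Dlk1 and the noncoding RNAs are coupled differently in the 2 kinds of tumour was not tested.

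**Figure D3:**
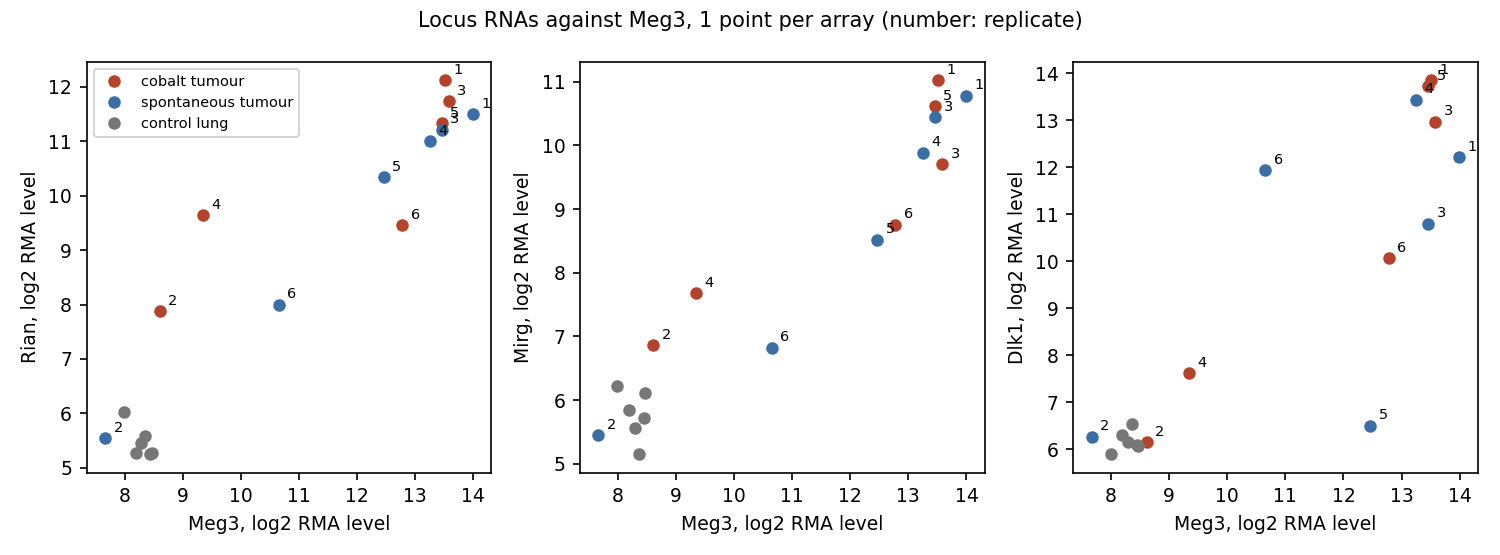
Each point is 1 array, with the Meg3 level on the x axis and the level of Rian, Mirg or Dlk1 on the y axis (log2 RMA); cobalt tumours are red, spontaneous tumours blue, control lungs grey, and numbers are tumour replicates. Spontaneous tumour 5 stands out in the Dlk1 panel, with Meg3 at 12.47 and Dlk1 at 6.50.

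Marker lists of cell types were read beside the locus RNAs. Their counts are to be read against the share of all genes. Of these, 14.7% rose and 19.3% fell in cobalt tumours, and 16.4% rose and 18.2% fell in spontaneous tumours. Over 10 measured markers of alveolar type 2 cells, spontaneous tumours 2 and 6 averaged -0.42 and -0.55 relative to control lungs, while the other 10 tumours were at 0.64 to 1.03. Spontaneous tumour 2 had the lowest Meg3, Rian and Mirg, while spontaneous tumour 6 had Dlk1 at 11.93. Cobalt tumours 2 and 4, low in Meg3 and Dlk1, had type 2 markers at 0.79 and 0.70, within the range of the tumours with high locus RNAs. The mean of the proliferation markers ran from -0.58 to 1.94 in cobalt tumours, lowest in tumour 4, and from 1.07 to 2.95 in spontaneous tumours, with tumour 2 at 2.04. Pulmonary neuroendocrine cells are an adult lung type in which neural genes are high: of 13 of their markers, 0 rose and 2 fell in each tumour group, with a mean of -0.31 to 0.38 over the 12 tumours. Fibroblast markers, 13 in number, averaged -2.51 to -0.43 in cobalt tumours and -2.67 to -0.81 in spontaneous tumours. Of them 0 rose and 7 fell in cobalt tumours, and 2 rose and 7 fell in spontaneous tumours. The value of -0.43 was that of cobalt tumour 6. Its endothelial markers averaged -0.98, where the other cobalt tumours had -3.67 to -2.53. Adipocyte markers, 7 in number, were at -0.63 to 0.37 in cobalt tumours and -0.42 to 0.04 in spontaneous tumours, with 1 rising and 2 falling in each group. The part of any cell type in the locus values was not tested.

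The genes whose levels followed Meg3 most closely over the 12 tumours, with group means subtracted, were Mirg (r = 0.94) and Rian (r = 0.93), ranks 1 and 2 of 18192 genes. Dlk1 ranked 70 (r = 0.78). Outside the locus, among 11699 genes that were not dim or clone names, the 10 most alike were Ss18l2, Kbtbd7, Bex1, Bhlhb9, Cep68, Cebpg, Miga1, Klhl7, Dpp7 and Ube3a, with r of 0.91 to 0.86. Bex1, a small adaptor protein of neural tissue, had the widest range of these, at 4.66 to 12.43 in cobalt tumours and 5.10 to 11.82 in spontaneous tumours, around a control mean of 6.41 ± 0.75 (SD, n = 6). Ube3a, a ubiquitin ligase imprinted in neurons, moved far less, with r = 0.86. At the other end were Ankrd13d, Ppp1r11, Arhgap1, Stub1 and Kctd5, with r of -0.94 to -0.91. Those most alike to Dlk1 were Ccl27a, Cbx1, Pigh, Zc3h8 and Aifm1, with r of 0.85 to 0.78. These r are descriptions over 12 tumours whose cell type markers also varied, picked as extremes of a whole array. Subtracting group means does not remove the separate clusters of Meg3 in cobalt tumours and of Dlk1 in spontaneous tumours. The r over the 12 tumours therefore take in those gaps.

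Genes next to the domain moved in both directions and by smaller amounts. Of the 10 measured protein-coding genes on each side, 5 rose and 4 fell in cobalt tumours, with a median of 0.01 and a range of -0.94 to 1.74. In spontaneous tumours 3 rose and 6 fell, with a median of -0.05 and a range of -0.92 to 0.98. Over the whole array 14.7% of genes rose and 19.3% fell in cobalt tumours, and 16.4% rose and 18.2% fell in spontaneous tumours. Degs2, a sphingolipid desaturase and hydroxylase on the Dlk1 side, rose in cobalt tumours by 1.74 (limma, adjusted p = 0.0337), and Yy1, a zinc finger factor, by 0.60 (limma, adjusted p = 0.000137). Yy1 and Wdr20 rose in both tumour groups, and Slc25a29, Dync1h1, Hsp90aa1 and Mok fell in both. Inside the domain, Dio3os, a noncoding RNA that overlaps the Dio3 region on the opposite strand, had a mean of 7.09 ± 0.51 in cobalt tumours, 7.25 ± 0.79 in spontaneous tumours and 6.36 ± 0.26 in control lungs (SD, n = 6 each). It rose by 0.89 in spontaneous tumours (limma, adjusted p = 0.0303) and differed by 0.73 in cobalt tumours without passing the test (limma, adjusted p = 0.0746). The noncoding 3110009F21Rik, the other measured gene there, differed by 0.63 in cobalt tumours (limma, adjusted p = 0.0775) and 0.25 in spontaneous tumours (limma, adjusted p = 0.486), and passed in neither. None of the 20 flanking genes passed between the tumour groups.

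**Figure D4:**
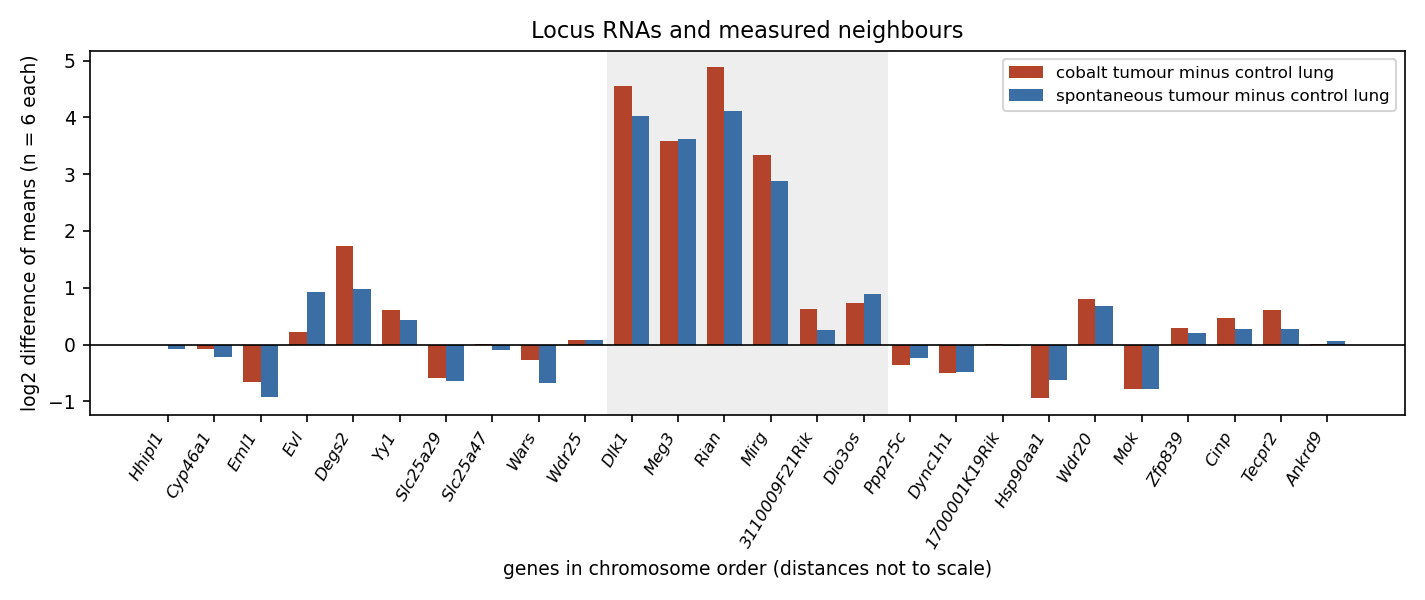
Bars give the log2 difference of means from control lung, red for cobalt tumours and blue for spontaneous tumours (n = 6 each), for genes in chromosome order, with the genes between Dlk1 and Dio3 shaded. The 4 locus RNAs stand between 2.88 and 4.88, and the 20 flanking genes between -0.94 and 1.74.

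Genes of pathways that touch the members were described by lists, each to be read against the share of all genes: 14.7% rose and 19.3% fell in cobalt tumours, and 16.4% rose and 18.2% fell in spontaneous tumours. Of 25 Notch pathway genes, relatives and possible partners of Dlk1, 3 rose and 15 fell in cobalt tumours, and 3 rose and 13 fell in spontaneous tumours, with medians of -0.45 and -0.43. Hey1, a transcriptional target of Notch, fell by 2.62 in cobalt tumours (limma, adjusted p = 3.22e-06) and fell by 2.81 in spontaneous tumours (limma, adjusted p = 1.61e-06). Notch4, a receptor typical of endothelium, fell by 2.52 and 2.40 in the same groups, while Jag1, a ligand, rose by 0.69 and 0.61, and Adam10, a protease that cuts Notch, by 0.49 and 0.70. Endothelial markers fell in 12 of 13 cases in each group, with medians of -2.55 in cobalt and -2.70 in spontaneous tumours, and their part in the Notch counts was not tested.

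Dio3 inactivates thyroid hormone. Of 15 other genes of thyroid hormone activation, transport and response, 0 rose in either group, and 5 fell in cobalt tumours and 6 in spontaneous tumours, where 19.3% and 18.2% of all genes fell. Klf9, a hormone target, fell by 1.48 in each group, and the receptor Thra fell by 1.00 in each.

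Among factors that keep or erase imprints, 6 of 20 rose and 1 fell in cobalt tumours, and 4 rose and 2 fell in spontaneous tumours, where those counts are near or below the 16.4% and 18.2% of all genes. Uhrf1, which recruits the maintenance DNA methyltransferase, rose by 1.15 in cobalt tumours and 1.46 in spontaneous tumours. Tet2, which oxidises methylated cytosine, rose by 0.78 and 0.59. Aff3, a protein that binds methylated regions of this domain in mouse embryonic stem cells, fell by 3.57 and 3.31, to 6.16 in cobalt tumours and 6.42 in spontaneous tumours, against 9.73 in control lungs. Of 11 genes of the Polycomb repressive complex, whose marks lie at the domain in mouse embryonic stem cells, 5 rose and 1 fell in cobalt tumours, and 6 rose and 2 fell in spontaneous tumours. Ezh2, its methyltransferase, rose by 1.47 and 1.63, and Ezh1, the alternative subunit, fell by 0.36 and 0.47. Proliferation markers rose in 1 of 9 cases in cobalt tumours and 9 of 9 in spontaneous tumours. Whether Uhrf1 and Ezh2 moved with them was not tested.

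Imprinted genes of other loci moved in both directions. Of 23, 2 rose and 8 fell in cobalt tumours, and 3 rose and 8 fell in spontaneous tumours, with medians of -0.11 and -0.44. Ppp1r9a, a cytoskeletal scaffold, rose by 2.14 in cobalt tumours and 1.08 in spontaneous tumours, and Phlda2, a restrainer of placental growth, rose by 1.74 and 1.13. Ndn, a growth-restraining protein of neurons and other cells, fell by 2.76 and 2.77. Of 16 genes of microRNA processing, 3 rose and 5 fell in cobalt tumours, and 2 rose and 6 fell in spontaneous tumours, with the rising counts near the share of all genes. Prkra, a Dicer partner, rose by 0.57 and 0.75, while the Argonaute genes Ago1 and Ago3 fell, Ago1 by 0.73 and 0.72 and Ago3 by 0.94 and 0.79. Between cobalt and spontaneous tumours 0 genes of these 6 lists passed the test.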

How the data were processed

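The deposited values are log2 levels made by the authors with RMA (background correction, quantile normalization and summary of probes to probe sets), per the submitters' processing notes, with settings that no source used here gives. Over 45101 probe sets the lowest value was 3.34 and the highest 15.26, and array medians lay between 6.32 and 6.45. No detection calls were used, so the number of arrays limits the precision. Symbols came from the platform annotation: 34945 probe sets had 1 symbol, and the 932 with several were not used. Each gene took its brightest probe set by the mean of all arrays, giving 18193 genes. Differences were fitted with limma 3.58.1 in R 4.3.3 (lmFit and eBayes, group only, all 18 arrays), two-sided, with Benjamini-Hochberg adjustment over all genes and a threshold of 0.05; the script was tested on simulated data. Correlations used exact permutation of pairings. Alternatives were the mean of probe sets, a filter on dim genes, cyclic loess, array weights, a replicate block, Y-linked RNA as a covariate, fits of the compared arrays alone, exact permutation, and leaving out each array. The members and lists were chosen with earlier results of these data known. Genes named are all members, the most alike by r, and up to 3 per list and direction with the largest passing difference.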

Additional observations from a re-analysis of the deposited data

How the results depend on the processing

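The calls of Dlk1, Rian and Mirg in cobalt tumours and of Rian in spontaneous tumours held under all 23 alternatives each. In spontaneous tumours Dlk1 lost its call with the mean of probe sets (2.19) and without control lung 6 and cobalt tumour 6 (4.0), and ran from 3.37 to 4.80 on leaving out 1 array, with 10 of 12 fits not called. There Mirg lost its call with the Y-linked covariate (2.57) and on high-Xist arrays alone (2.59). The last 2 subsets, without control lung 6 and cobalt tumour 6 and with high Xist alone, were chosen after seeing the data. Between cobalt and spontaneous tumours 15 genes were called, against 26 without dim genes, 24 with array weights, 29 with the Y-linked covariate, 1 with only the 12 arrays compared, 36 without control lung 6 and cobalt tumour 6, 0 with high Xist alone, and 1 to 82 on leaving out 1 array, the most without cobalt tumour 6 and the fewest without cobalt tumour 1. That difference of Dlk1 turned to -0.57 with array weights and -1.96 with high Xist alone, that of Rian to -0.13 and of Mirg to -0.45 with array weights. Leaving out 1 array gave -0.25 to 1.45 for Dlk1, -0.050 to 1.26 for Rian and -0.18 to 0.91 for Mirg; turned values were -0.20 without spontaneous tumour 5, -0.09 without cobalt tumour 1 and -0.06 without cobalt tumour 5 for Dlk1, and the lowest values came without spontaneous tumour 2. None of these was called. Spearman's rho of Rian with Mirg and with Dlk1 in cobalt tumours, 0.886 each, did not pass over 12 pairs (adjusted exact permutation p = 0.0667). The causes were not tested.

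Same-numbered arrays deviated together with correlations of -0.34 to 0.20. Arrays of different numbers were not compared in this way, so these values cannot settle whether the replicate numbers pair the samples. With the replicate block 1 gene was called between cobalt and spontaneous tumours, against 15 without it. Between spontaneous tumours and control lungs 5798 were called with it, against 6295 without it. No call of Dlk1, Rian or Mirg changed. Dim genes, near background on the array, limit what small differences can be seen.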
